A study of Mus musculus with 43 samples.

Results

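6 genes that encode costimulatory or inhibitory molecules of antigen presentation were followed across immune cells of mice given interferon alpha. They are Cd274 (PD-L1), Pdcd1lg2 (PD-L2), Cd80, Cd86, Icosl and Cd40. Their probe sets were taken by gene symbol from the platform annotation, and all 6 of 6 were found among the 19752 genes measured. Cd80 had 2 probe sets, of which the brighter over all arrays was used, and each of the others had 1. The probe sets were 10462390 for Cd274, 10462398 for Pdcd1lg2, 10435704 for Cd80, 10439312 for Cd86, 10364361 for Icosl and 10478678 for Cd40.

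The arrays (Affymetrix Mouse Gene 1.0 ST) carried RNA of 9 cell types sorted from male C57BL/6 mice aged 6 weeks. There were 17 arrays of cells taken 2 h after 10000 U of interferon alpha given under the skin, and 26 arrays of baseline cells from mice without it. The cell types were dendritic cells, neutrophils, NK and NKT cells and the CD4+, CD8+, regulatory and gamma-delta T cells of the spleen, and macrophages from the peritoneal cavity. Each type had 2 interferon arrays against 3 baseline arrays, except macrophages with 1 against 3 and neutrophils with 2 against 2. The labels name no vehicle control among the baseline mice. Nothing says that the arrays of a group came from separate animals, so each p-value measures the spread between these arrays, which may be technical.

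The labels describe the preparation of baseline arrays 1 and 2 of every type in words of staining. The other arrays carry a different wording or none, so treatment and preparation partly overlap. In neutrophils, which have only baseline arrays 1 and 2, they overlap fully and cannot be told apart within the type. In NK, NKT and CD4+ T cells no interferon array shares its wording with a baseline array, so the overlap is full there too. Neither the preparation term, which sets staining against all other wordings, nor baseline array 3 alone separates treatment from preparation in those types. CD8+ T cell baseline arrays 1 and 2 are titled as spleen but carry blood as their source, and macrophage baseline arrays 1 and 2 carry a spleen preparation, so the interferon changes described in these 2 types are also given with baseline array 3 alone, a setting that uses array 3 as the only baseline of every type. In macrophages that setting compares 1 array with 1, so its p-values there rest on the spread of other groups. Each array's nearest neighbour was of its own cell type for 41 of 43 arrays. The median level of 8 T cell markers lay between 10.07 and 11.78 (log2 intensity) in the 5 T lineage types. The median of 8 NK cell markers lay between 11.75 and 12.03 in NK cells, that of 10 dendritic cell markers between 11.15 and 11.58 in dendritic cells, that of 10 macrophage markers between 11.69 and 12.10 in macrophages, and that of 10 neutrophil markers between 12.47 and 12.74 in neutrophils. Of the gamma-delta T cell markers only 3 were measured.

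T cells that meet antigen also read a second set of signals from the presenting cell. CD80 and CD86 bind CD28 to promote activation and CTLA-4 to restrain it, and ICOS ligand binds ICOS on T cells already activated. PD-L1 and PD-L2 bind PD-1 and dampen the response, while CD40 on the presenting cell receives CD40 ligand from T cells and licenses it to stimulate. Type I interferon acts through its receptor on a complex that holds STAT2 and IRF9 and binds interferon response elements in target promoters.

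Cd274 and Pdcd1lg2 are direct neighbours on chromosome 19, with 0 annotated genes between them in the RefSeq table of GRCm38.p6, and they encode the paired ligands of PD-1. RefSeq promoter windows, from 250 bases before to 50 bases after the start of a gene, were found for 4 of the 6 genes. No window was found for Cd86 or Cd40, so these genes, both raised in at least 1 cell type, were not searched. Those of this pair are shown because the genes lie side by side and their interferon changes stood far apart. Capitals mark the letters GAAANNGAA, the core of an interferon response element, searched on both strands. The Cd274 window is chr19:29367188-29367487 and the Pdcd1lg2 window is chr19:29410669-29410968, both on the plus strand and written 5′ to 3′.
Cd274: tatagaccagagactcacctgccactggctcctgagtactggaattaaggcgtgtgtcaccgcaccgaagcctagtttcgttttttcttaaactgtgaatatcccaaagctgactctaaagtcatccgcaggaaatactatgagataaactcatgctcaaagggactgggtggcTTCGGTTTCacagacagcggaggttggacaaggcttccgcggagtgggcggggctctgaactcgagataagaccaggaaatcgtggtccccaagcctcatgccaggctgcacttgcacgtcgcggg
Pdcd1lg2: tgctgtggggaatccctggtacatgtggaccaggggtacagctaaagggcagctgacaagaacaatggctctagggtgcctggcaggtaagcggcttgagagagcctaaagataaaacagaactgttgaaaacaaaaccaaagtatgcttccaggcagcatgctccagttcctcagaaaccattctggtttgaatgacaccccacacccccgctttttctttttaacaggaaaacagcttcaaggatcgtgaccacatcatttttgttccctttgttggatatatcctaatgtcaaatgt
The Cd274 window held 1 match on the opposite strand, read here as TTCGGTTTC, whose first base lay at position -76 from the start. The Pdcd1lg2, Cd80 and Icosl windows held 0 matches. Of 32841 promoter windows of 300 bases, 8.56% held at least 1 match. The letters TTCNNNGAA, the core of a STAT site, had 0 matches in the 4 windows and occurred in 8.30% of all windows. The letters GGNNNTTCC, part of an NF-kB site, had 1 match on the opposite strand, in the Cd80 window (GGAACCACC), and occurred in 18.5% of all windows. The searched motifs did not overlap in these windows.

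Interferon raised 2 of the 6 genes on the mean over the 9 cell types, Cd274 and Cd86. Levels are log2 intensities, a change is the interferon mean minus the baseline mean on that scale, and calls were made in limma at a p below 0.05 after Benjamini-Hochberg adjustment over all genes, together with a change of at least 1, that is 2-fold. Cd274 rose by 2.34 (SE 0.101), or 5.06-fold, and Cd86 by 1.53 (SE 0.0942), or 2.89-fold. Cd40 changed by 0.40, below the 2-fold limit (adjusted p = 0.00121). Cd80 at 0.23, Icosl at -0.10 and Pdcd1lg2 at -0.13 did not pass the test (adjusted p = 0.209, 0.466 and 0.143). Of all genes, 1.26% were called raised on this mean. The median change over the 6 genes was 0.31, beside -0.01 over all genes.

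**Figure D1:**
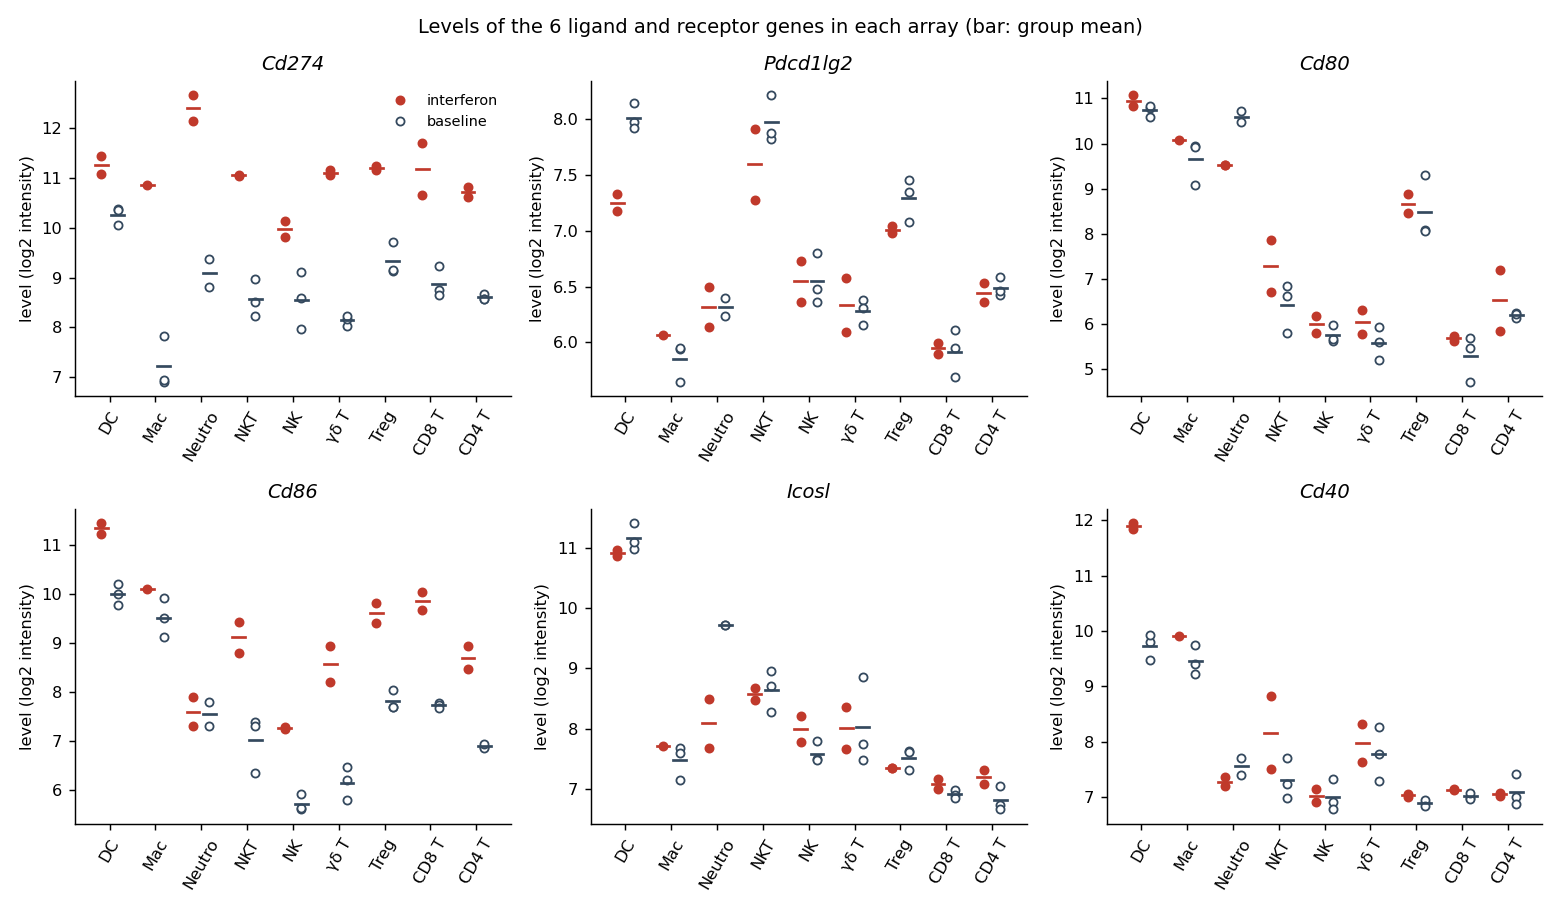
Level of each gene in every array (y axis, log2 intensity; each panel has its own scale) in 9 cell types, with interferon arrays as filled red points left of the open baseline points and bars at group means. DC, dendritic cells; Mac, macrophages; Neutro, neutrophils; Treg, regulatory T cells. In the Cd274 panel every interferon point lies above the baseline points of its type, whereas in the Cd40 panel dendritic cells stand apart at 11.84 and 11.95 after interferon.

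In single cell types, 16 of the 54 gene and cell type pairs were raised and 1 was lowered. Raised genes of the 6 numbered 1 in macrophages and neutrophils and 2 in each of the other 7 types. Against these counts, the share of all genes called raised was 2.34% in dendritic cells, 2.43% in neutrophils, 1.35% in macrophages, 2.89% in NKT and 1.25% in NK cells. For T cells it was 0.901% in the CD4+, 1.00% in the CD8+, 1.11% in the regulatory and 1.53% in the gamma-delta type. The lowered pair was Icosl in neutrophils, where 2.85% of all genes were lowered. In bulk samples of sorted cells, fewer cells of a type and less RNA per cell cannot be told apart.

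Cd274, which encodes the PD-L1 ligand of PD-1, was raised in 8 of 9 cell types and by just under 2-fold in dendritic cells. Macrophages showed the highest change, with 10.85 on the single interferon array, against 6.91, 6.93 and 7.83 at baseline, a rise of 3.63 (SE 0.367; 12.3-fold; adjusted p = 1.40e-08). The interferon array lay above all 3 baseline arrays. Without the 2 baseline arrays of doubtful tissue, the single interferon array stood against 1 baseline array, and the rise was 3.02.

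Neutrophils reached the highest Cd274 level of any group, 12.14 and 12.66 after interferon, against 8.81 and 9.37 at baseline. Both interferon arrays lay well above both baseline arrays, and the rise was 3.31 (SE 0.318; 9.91-fold; adjusted p = 1.75e-09). In gamma-delta T cells the levels were 11.15 and 11.06 after interferon, against 8.04, 8.17 and 8.23 at baseline, a rise of 2.96 (adjusted p = 5.33e-09). NKT cells had 11.05 and 11.06 against 8.22, 8.51 and 8.98, a rise of 2.48 (adjusted p = 1.42e-07). In both of these types the interferon arrays nearly coincided and stood clear of the baseline range.

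The conventional T cell types followed with smaller rises of the PD-L1 transcript. CD8+ T cells had 10.65 and 11.70 after interferon, against 8.74, 8.64 and 9.24 at baseline, a rise of 2.30 (adjusted p = 1.45e-06) that was 1.93 (adjusted p = 0.00064) with baseline array 3 alone. CD4+ T cells had 10.62 and 10.81 against 8.67, 8.57 and 8.57, a rise of 2.11 (adjusted p = 6.79e-06). Regulatory T cells had 11.16 and 11.24 against 9.14, 9.16 and 9.72, a rise of 1.86 (adjusted p = 4.98e-05). No interferon array overlapped the baseline range in these 3 types, and the 2 CD8+ interferon arrays were farther apart than those of any other type.

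NK cells showed the smallest called rise of Cd274, with 10.13 and 9.82 after interferon, against 8.59, 7.98 and 9.10 at baseline. The rise was 1.42 (SE 0.29; adjusted p = 0.00195), and it fell short of the test with baseline array 3 alone (0.87, adjusted p = 0.158) and without interferon array 1 (1.26, adjusted p = 0.0747). Dendritic cells had 11.08 and 11.44 after interferon, against 10.38, 10.06 and 10.35 at baseline. Their change of 1.00 (SE 0.29; adjusted p = 0.0289) lay just below the 2-fold limit before rounding, and the arrays did not overlap. It was called at 1.15 with the replicate number as a block, at 1.04 without dendritic cell baseline array 3 and at 1.02 with the medians of B cell and macrophage markers as covariates, and it was 0.69 (adjusted p = 0.116) with preparation as a term.

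The Cd274 change differed among the cell types (F = 7.58, adjusted p = 0.000972), as did those of Cd86 (F = 6.84, adjusted p = 0.00203), Cd40 (F = 7.11, adjusted p = 0.00155) and Icosl (F = 4.42, adjusted p = 0.0304). The same test did not pass for Pdcd1lg2 (F = 2.40, adjusted p = 0.300) or Cd80 (F = 1.79, adjusted p = 0.531). Each kept that outcome in 51 of 52 alternative fits. The 4 of 6 calls stand beside 4.16% of all genes. With baseline array 3 alone as the baseline, which leaves neutrophils out, none of these 4 passed, with adjusted p-values of 0.0529 for Cd274, 0.0935 for Cd40, 0.585 for Cd86 and 0.841 for Icosl. The Icosl call was also lost without neutrophil baseline array 1 (adjusted p = 0.173), baseline array 2 (adjusted p = 0.162) or interferon array 1 (adjusted p = 0.349), and with those cells, NKT cells and gamma-delta T cells left out (adjusted p = 0.577).

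Each cell type's change was also set against the mean change of the other 8 types. In dendritic cells the Cd274 change was lower (a difference of -1.51, SE 0.31; adjusted p = 0.00315) and the Cd40 change was higher by 1.97 (SE 0.29; adjusted p = 3.32e-05), 2 of 6 genes called beside 1.20% of all genes. In neutrophils the changes of Icosl (-1.71, adjusted p = 0.000584), Cd86 (-1.67, adjusted p = 0.000758) and Cd80 (-1.46, adjusted p = 0.0418) were lower than elsewhere, 3 of 6 beside 2.35%. The Cd274 call in dendritic cells was lost without their interferon array 1 (-1.33, adjusted p = 0.0981), and the Cd80 call without any 1 of the 4 neutrophil arrays (-1.58 to -1.34). The neutrophil Cd274 change was higher by 1.09 without passing the test (adjusted p = 0.0589). The macrophage Cd274 change, with 1 interferon array, was higher by 1.45, also without passing (adjusted p = 0.101). These outcomes held in 44 of 50 alternative fits for neutrophils and in 45 of 51 for macrophages. In the other 7 types 0 of 6 genes were called by limma, beside 0.359% of all genes in macrophages, 0.334% in NKT and 0.213% in NK cells. For T cells the share was 0.0253% in the CD4+, 0.0405% in the CD8+, 0.0456% in the regulatory and 0.0253% in the gamma-delta type. Among these 42 pairs, 7 had an unadjusted p below 0.05, and with array weights the calls over all 54 pairs numbered 9 in place of 5.

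**Figure D2:**
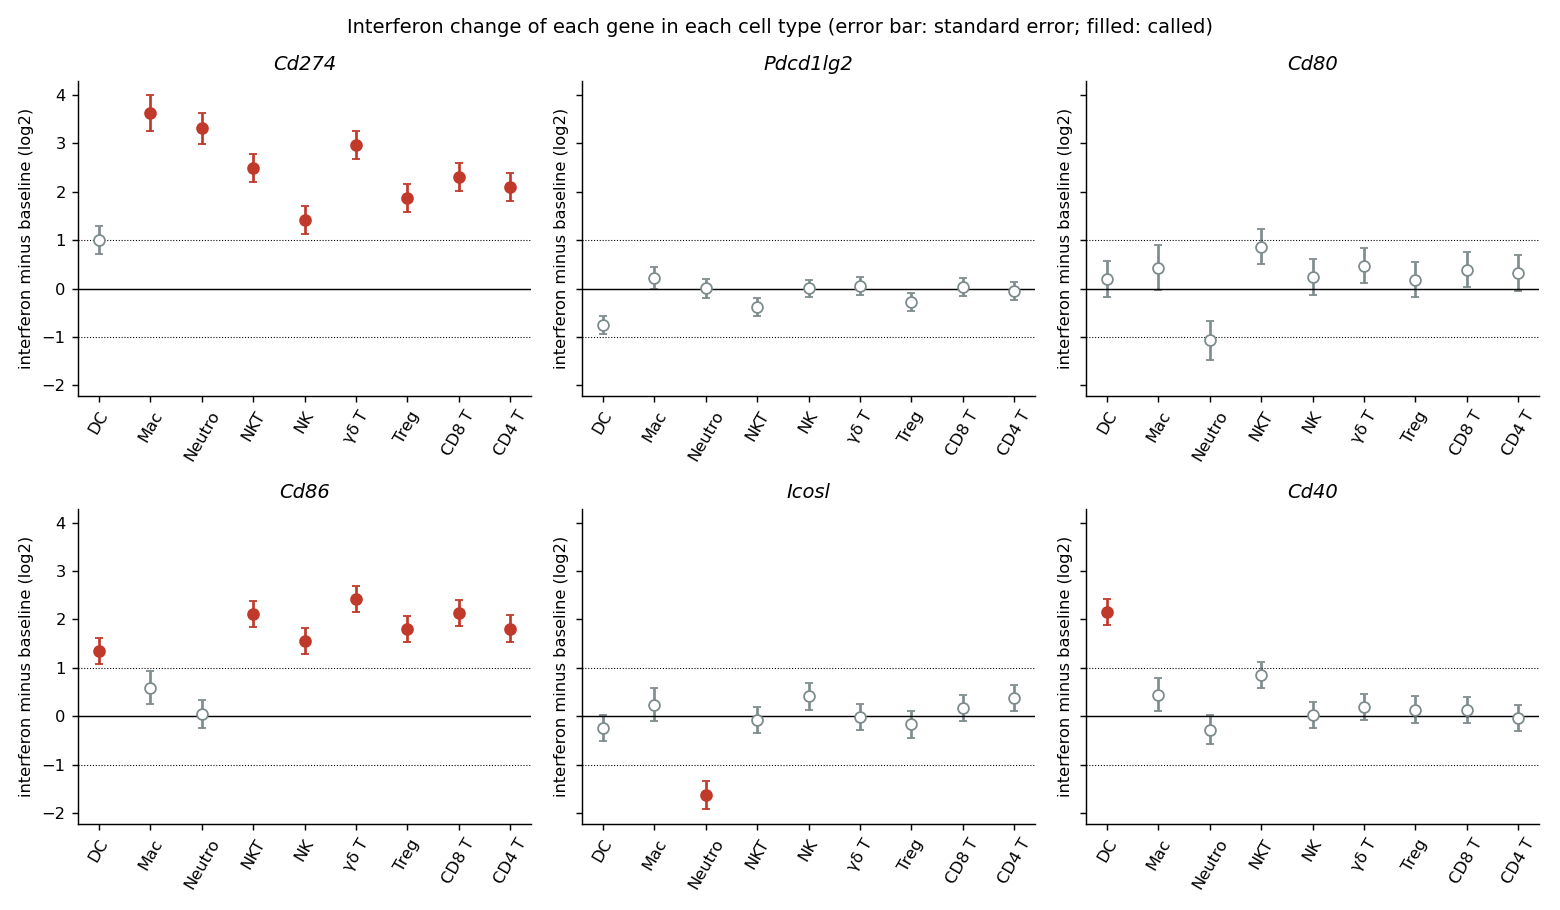
Interferon minus baseline change of each gene (y axis, log2; error bars are standard errors of the limma fit) in 9 cell types, filled where called and open where not, with dotted lines at 1 and -1. The Cd274 and Cd86 panels are filled in 8 and 7 types, the Cd40 panel only in dendritic cells and the Icosl panel only in neutrophils, while the Pdcd1lg2 and Cd80 panels hold 0 filled points.

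Before interferon, dendritic cells held the highest Cd274 level of the 9 types at 10.26 ± 0.17 (SD, n = 3), and their arrays did not overlap those of the type ranked next, regulatory T cells at 9.34 ± 0.33 (SD, n = 3). Macrophages held the lowest at 7.23 ± 0.53 (SD, n = 3), clear of gamma-delta T cells at 8.15 ± 0.10 (SD, n = 3). Of the 8 pairs of neighbours in this order, 6 overlapped in their arrays. After interferon the order was led by neutrophils at 12.40 ± 0.37 (SD, n = 2), clear of dendritic cells at 11.26 ± 0.26 (SD, n = 2), and NK cells were lowest at 9.98 ± 0.22 (SD, n = 2). The span between the highest and the lowest type was 2.42 after interferon, against 3.04 at baseline.

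Pdcd1lg2, the second PD-1 ligand, was called in 0 of 9 cell types by limma and had an unadjusted p below 0.05 in 2. Its changes lay between -0.76 and 0.22. Outside dendritic, NKT and regulatory T cells its group means were at most 6.55, under the level of 7 used as the limit for dim genes. The lack of a call in those types therefore rests on dim signals. The largest change was a lower level in dendritic cells, 7.17 and 7.33 after interferon, against 8.14, 7.97 and 7.92 at baseline. Both interferon arrays lay below the 3 baseline arrays, with an adjusted p of 0.00617 for -0.76 (SE 0.184), short of 2-fold and therefore not called. Set against the other 8 types this change differed by -0.71 (adjusted p = 0.0488), also short of 2-fold. In neutrophils Pdcd1lg2 stood at 6.49 and 6.14 after interferon, against 6.40 and 6.23 at baseline, and the arrays overlapped.

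At baseline Pdcd1lg2 was highest in dendritic cells at 8.01 ± 0.12 (SD, n = 3) and NKT cells at 7.97 ± 0.21 (SD, n = 3), whose arrays overlapped, and next in regulatory T cells at 7.29 ± 0.19 (SD, n = 3). The other 6 types had means between 5.85 and 6.55. After interferon NKT cells at 7.59 ± 0.45 and dendritic cells at 7.25 ± 0.11 (SD, n = 2 each) again led and overlapped. The span between the highest and lowest type was 1.65 after interferon, against 2.16 at baseline, the narrowest of the 6 genes at either time.

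Cd80, a ligand of CD28 and CTLA-4, was called in 0 of 9 types by limma, with an unadjusted p below 0.05 in 2 of them. Neutrophils were the exception in size, with 9.53 and 9.52 after interferon, against 10.48 and 10.72 at baseline. Both interferon arrays lay about 1 unit below the baseline arrays, a change of -1.07 (SE 0.403) that missed the test (adjusted p = 0.0832). It was called with preparation as a term (-1.52, adjusted p = 0.00994), with neutrophils fitted alone (-1.07, adjusted p = 0.0173) and over the mean of both probe sets (-1.01, adjusted p = 0.0284). The preparation term was estimated from other cell types, because the neutrophil arrays cannot separate it from treatment, so that fit adds no evidence from neutrophils. In NKT cells Cd80 stood at 7.86 and 6.70 after interferon, against 6.61, 5.80 and 6.84 at baseline, with overlap, and the change of 0.86 did not pass the test (adjusted p = 0.159). Without NKT interferon array 2 it was 1.45 (adjusted p = 0.0518), with array weights it was called at 1.43, and with the marker covariates it was 0.17 (adjusted p = 0.796). The array with 7.86 also had the highest macrophage marker median of the NKT arrays, 10.17. The dimmer Cd80 probe set changed by -0.96 in neutrophils and by between -0.17 and 0.70 in the other 8 types.

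The Cd80 levels separated the cell types more widely than those of any other of the 6 genes. At baseline dendritic cells at 10.74 ± 0.13 (SD, n = 3) and neutrophils at 10.60 ± 0.17 (SD, n = 2) overlapped at the top, followed by macrophages at 9.65 ± 0.50 (SD, n = 3) and regulatory T cells at 8.48 ± 0.72 (SD, n = 3). The regulatory T cell arrays read 8.45 and 8.87 after interferon, against 8.07, 8.05 and 9.31 at baseline, with overlap. Both groups of regulatory T cells lay above every array of the other 5 lymphocyte types, which had means between 5.29 and 6.41 at baseline. After interferon, macrophages at 10.08 (1 array) ranked above neutrophils at 9.53 ± 0.01 (SD, n = 2), and dendritic cells still led at 10.95 ± 0.17 (SD, n = 2).

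Cd86, the other ligand shared by CD28 and CTLA-4, was raised in all 6 lymphocyte types and in dendritic cells, and not in macrophages or neutrophils. The largest change was in gamma-delta T cells, with 8.94 and 8.20 after interferon, against 6.19, 5.78 and 6.46 at baseline, a rise of 2.42 (SE 0.271; 5.36-fold; adjusted p = 8.84e-08). The array with the highest Cd86 in each of these groups also had the highest B cell marker median, 9.13 after interferon and 10.69 at baseline. This rise was still called with marker covariates, and lay between 2.05 and 2.79 over all 54 alternative fits. CD8+ T cells had 9.68 and 10.04 against 7.78, 7.74 and 7.67, a rise of 2.13 (adjusted p = 1.67e-06) that was 2.19 (adjusted p = 0.000914) with baseline array 3 alone. The interferon arrays of both types lay more than 1 unit above their highest baseline array.

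NKT cells rose by 2.11 in Cd86 (9.43 and 8.80 after interferon, against 7.39, 6.33 and 7.31 at baseline; adjusted p = 8.51e-07). The macrophage markers moved with it: their median over 10 genes was 10.17 and 8.93 on the interferon arrays, against 9.21, 7.73 and 8.74 on the baseline arrays, and 2 of the 10 were called raised. With B cell and macrophage marker medians as covariates the Cd86 rise was 1.63 (adjusted p = 0.000215). Macrophages themselves, with markers between 11.69 and 12.10, had 10.11 for Cd86 after interferon, against 9.13, 9.51 and 9.91 at baseline, a change of 0.59 that did not pass the test (adjusted p = 0.678) and was 0.19 with baseline array 3 alone.

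CD4+ T cells had Cd86 levels of 8.46 and 8.94 after interferon, against 6.88, 6.86 and 6.93 at baseline, a rise of 1.81 (adjusted p = 2.93e-05). Regulatory T cells had 9.40 and 9.81 against 7.70, 7.70 and 8.04, a rise of 1.80 (adjusted p = 2.86e-05). NK cells had 7.24 and 7.28 against 5.60, 5.92 and 5.62, a rise of 1.55 (adjusted p = 0.000242). In all 3 types the interferon and baseline arrays were separate, although the NK cell arrays after interferon lay below the baseline arrays of regulatory and CD8+ T cells.

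Dendritic cells, the type with the highest Cd86 level, had 11.24 and 11.45 after interferon, against 9.79, 10.00 and 10.22 at baseline. The rise of 1.35 (SE 0.271; 2.54-fold; adjusted p = 0.000823) was 1.13 with baseline array 3 alone and did not pass there (adjusted p = 0.125). Neutrophils had 7.30 and 7.89 after interferon, against 7.29 and 7.80 at baseline, with a change of 0.05 and an adjusted p of 0.948. Their 4 arrays overlapped. Between classes of cells, the change in dendritic cells and macrophages differed by -1.00 from that in the 6 lymphocyte types (SE 0.245; adjusted p = 0.0199), a difference at the 2-fold limit. It lay between -1.22 and -0.90 over 51 alternative fits and was called in 32 of them. The class mean joins a change of 1.35 in dendritic cells with 0.59 in macrophages, which had 1 interferon array. Set singly against the other 8 types, neither was called, at -0.21 in dendritic cells and -1.06 in macrophages.

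Icosl, the ligand of ICOS, changed past the threshold only in neutrophils, where it was lowered. Neutrophils had 7.68 and 8.49 after interferon, against 9.72 and 9.71 at baseline, with no overlap. The change was -1.63 (SE 0.298; adjusted p = 0.000188), which leaves 0.324 of the baseline level. B cell markers fell in the same arrays: their median over 9 genes was 6.02 and 6.22 after interferon, against 9.02 and 8.03 at baseline, and 7 of the 9 were called lowered, among them Cd79a, which fell by 3.37, and Ms4a1, which fell by 3.40. Summed over the 9 markers the log2 level was 9.54 and 9.46 after interferon, against 12.40 and 11.57 at baseline. With the marker medians as covariates the Icosl change was -0.92 (adjusted p = 0.111) and the Cd80 change -0.81 (adjusted p = 0.416). The part of B cell RNA in either change was not tested further.

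The level of Icosl was highest in dendritic cells, 10.87 and 10.97 after interferon, against 11.42, 10.98 and 11.10 at baseline. The interferon arrays lay below the baseline arrays by a small gap, and the change of -0.25 did not pass the test (adjusted p = 0.862). At baseline neutrophils ranked next at 9.72 (n = 2), then NKT cells at 8.65 ± 0.35 and gamma-delta T cells at 8.03 ± 0.73 (SD, n = 3 each), which overlapped. Gamma-delta T cell arrays read 8.36 and 7.65 for Icosl after interferon, against 7.48, 7.74 and 8.86 at baseline, and the array with the highest Icosl in each group also had the highest B cell marker median, 9.13 after interferon and 10.69 at baseline. CD4+ T cells were lowest at baseline at 6.81 ± 0.21 and overlapped CD8+ T cells at 6.91 ± 0.06 (SD, n = 3 each).

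Cd40, the receptor through which T cells license a presenting cell, was raised only in dendritic cells. They had 11.84 and 11.95 after interferon, against 9.80, 9.48 and 9.93 at baseline, with a clear gap between the groups. The rise was 2.16 (SE 0.272; 4.46-fold; adjusted p = 4.64e-07). It lay between 1.96 and 2.25 over 54 alternative fits and was called in each. Most of these fits left out an array of another cell type, which does not alter the change itself. Macrophages, the other type with high Cd40, had 9.91 after interferon, against 9.22, 9.41 and 9.75 at baseline, a change of 0.45 that did not pass the test (adjusted p = 0.855) and was 0.15 with baseline array 3 alone.

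In NKT cells Cd40 stood at 8.82 and 7.50 after interferon, against 7.71, 7.23 and 6.98 at baseline. The groups overlapped, and the change of 0.85 (adjusted p = 0.046) was short of 2-fold. Without NKT interferon array 2 it was 1.51 (adjusted p = 0.000768), and without NKT baseline array 1 it was 1.06 (adjusted p = 0.0232), both called. The array with 8.82 was also the one with the highest macrophage marker median, 10.17, and with the marker covariates the change was 0.33 (adjusted p = 0.413). Across the other 6 types the Cd40 change lay between -0.28 and 0.20.

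At baseline Cd40 was highest in dendritic cells at 9.74 ± 0.24 and macrophages at 9.46 ± 0.27 (SD, n = 3 each), which overlapped, and the other 7 types had means between 6.90 and 7.78. After interferon dendritic cells at 11.89 ± 0.08 (SD, n = 2) stood well above the single macrophage array at 9.91. The change of Cd40 in dendritic cells and macrophages together was 1.09 higher than in the 6 lymphocyte types (SE 0.245; adjusted p = 0.00978), and it fell below the limit at 0.98 without NKT interferon array 2. With Cd86, 2 of the 6 genes were called in this contrast, beside 0.678% of all genes.

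**Figure D3:**
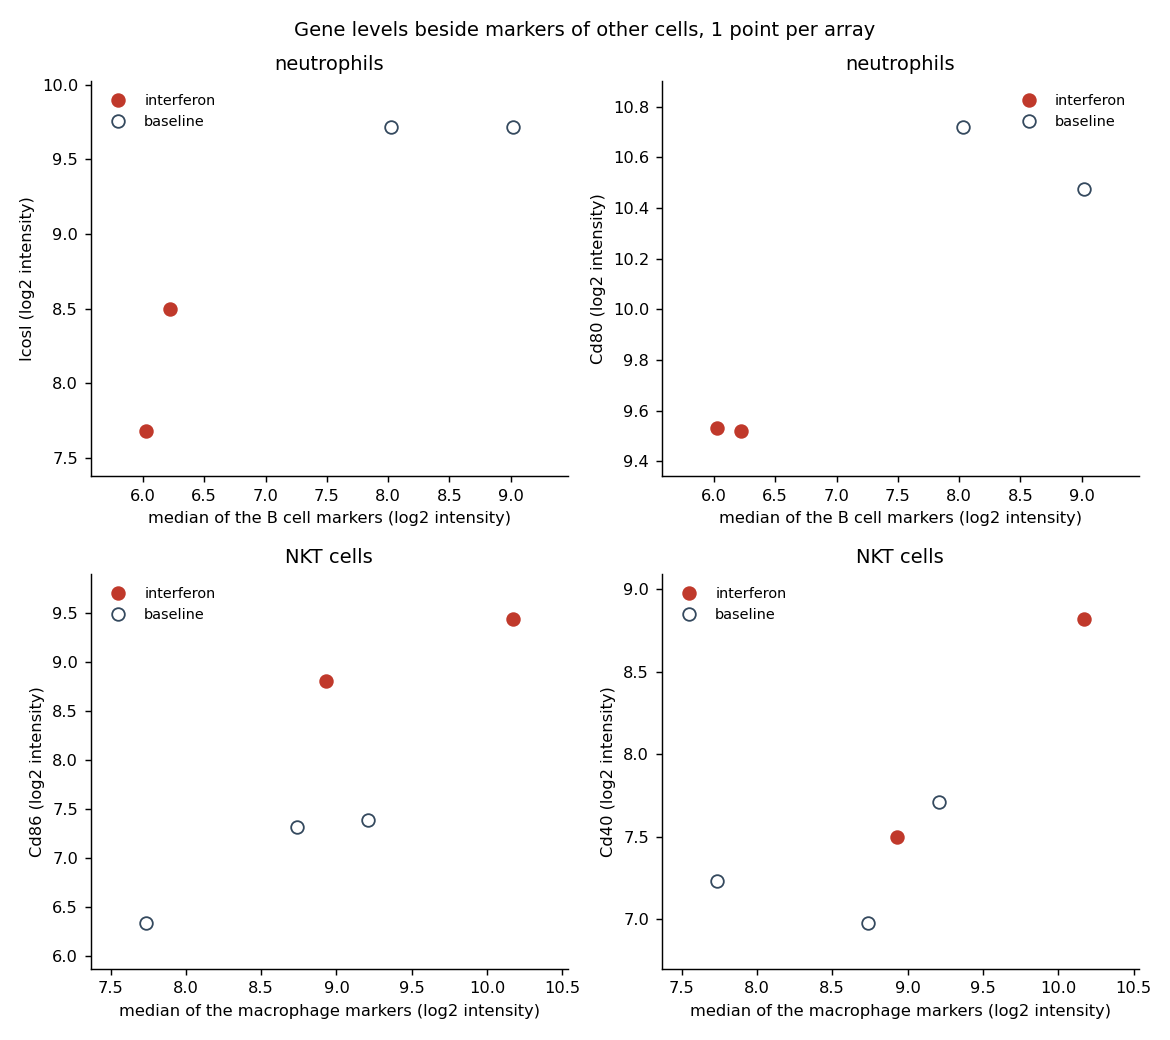
Level of a gene (y axis, log2 intensity) against the median of the markers of another cell type (x axis, log2 intensity), 1 point per array, with interferon arrays filled red and baseline arrays open. In neutrophils the interferon arrays have B cell marker medians of 6.02 and 6.22 and lie below the baseline arrays in Icosl and Cd80, and in NKT cells the interferon array with the highest macrophage median, 10.17, has the highest Cd86 and Cd40.

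The baseline levels of all 6 genes differed among the cell types (F test, adjusted p below 0.05 for each), as did those of 56.4% of all genes. In dendritic cells and macrophages, as the mean of both, 4 of 6 genes were higher than in the 6 lymphocyte types, beside 9.03% of all genes called in either direction. The differences were 3.91 for Cd80 (SE 0.19), 2.88 for Cd86 (SE 0.14), 2.42 for Cd40 (SE 0.14) and 1.74 for Icosl (SE 0.14), each with an adjusted p below 0.05. With baseline array 3 alone they were 3.76, 3.06, 2.62 and 1.60. The PD-1 ligands were the other 2 genes, at 0.06 for Cd274 (adjusted p = 0.827) and 0.18 for Pdcd1lg2 (adjusted p = 0.160).

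For Cd274 and Pdcd1lg2 that mean joins unlike cells, because dendritic cells exceeded macrophages by 3.04 (SE 0.26; adjusted p = 1.09e-11) and 2.16 (SE 0.165; adjusted p = 5.98e-13). With baseline array 3 alone these differences were 2.52 and 2.27, and that of Icosl, given next, was 3.51. Dendritic cells also exceeded macrophages in Icosl, by 3.70 (SE 0.243; adjusted p = 1.28e-14), and in Cd80, by 1.09 (SE 0.329; adjusted p = 0.0138). That makes 4 of 6 genes, beside 10.0% of all genes in either direction. Without macrophage baseline array 1 the Cd80 difference was 0.80 and was not called (adjusted p = 0.120), and with baseline array 3 alone it was 0.91 (adjusted p = 0.318). Cd86 and Cd40 differed by 0.48 and 0.28 between the same cells (adjusted p = 0.199 and 0.576).

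Baseline neutrophils exceeded the 6 lymphocyte types in 2 of 6 genes, Cd80 by 4.31 (SE 0.3; adjusted p = 3.86e-14) and Icosl by 2.14 (SE 0.222; adjusted p = 6.51e-10), beside 17.3% of all genes. These are the 2 arrays with B cell marker medians of 9.02 and 8.03. Cd86 was 0.67 higher (adjusted p = 0.0155) and the Pdcd1lg2 difference was -0.43 (adjusted p = 0.0207), both short of 2-fold. Cd274 and Cd40 differed by 0.41 and 0.37 (adjusted p = 0.176 and 0.186).

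Of 6 measured receptors of the 6 molecules, 1 was raised in 1 type and 1 was lowered in 1 type. Icos, the receptor of ICOS ligand on T cells, rose by 1.33 in dendritic cells (10.54 after interferon, against 9.22 at baseline; adjusted p = 6.02e-05). Cd28, the activating receptor of CD80 and CD86, was called lowered in macrophages, at -1.07 (adjusted p = 0.0386). This rests on dim signals, 5.73 on the single interferon array, against a mean of 6.80 at baseline, both under the level of 7 used as the limit for dim genes, and with baseline array 3 alone the change was not called (-1.11, adjusted p = 0.160). Pdcd1 (PD-1), Ctla4, Cd40lg (CD40 ligand) and Rgmb, which binds PD-L2, were called in 0 of 36 pairs of gene and type by limma, of which 4 had an unadjusted p below 0.05.

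Among 4 other B7 family and butyrophilin-like ligands, 1 was lowered in 1 type and 0 were raised by limma, also at an unadjusted p below 0.05. Vsir, the inhibitory ligand VISTA, fell by 1.05 in dendritic cells (SE 0.152; adjusted p = 5.76e-06). The share of all genes called lowered was 0.810% in dendritic cells, 0.263% in macrophages, 0.683% in gamma-delta T cells and 0.380% in NKT cells. Of 14 ligands and receptors of the TNF family with costimulatory roles, Tnfsf8 (CD30 ligand) rose in 4 types, by 1.86 in gamma-delta T cells, 1.83 in NKT cells, 1.77 in dendritic cells and 1.56 in NK cells. Tnfsf15 (TL1A) rose by 1.58 in dendritic cells, and Tnfrsf9 (4-1BB) fell by 1.18 in NKT cells.

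Of 22 other inhibitory ligands and receptors, between 1 and 4 were raised in each cell type, 20 pairs of gene and type in all, and 7 pairs were lowered. Lgals9 (galectin 9) was raised in all 9 types, by 2.64 (SE 0.191) in dendritic cells and by 1.12 in NKT cells, and in macrophages its rise of 1.19 was 0.94 with baseline array 3 alone and not called (adjusted p = 0.163). Fgl2, a secreted ligand of inhibitory receptors, rose by 2.25 in macrophages, 2.03 in dendritic cells, 1.32 in NKT cells and 1.07 in gamma-delta T cells, and the macrophage rise was 1.79 with baseline array 3 alone. Lilrb4a, an inhibitory receptor, rose in NKT cells, NK cells, CD8+ T cells and gamma-delta T cells by between 1.16 and 1.79. In CD8+ T cells the Lilrb4a rise of 1.19 was not called with baseline array 3 alone (0.86, adjusted p = 0.706). In NKT cells, where the macrophage marker median was 10.17 and 8.93 after interferon, against 9.21, 7.73 and 8.74 at baseline, the changes with marker covariates were 1.03 for Lilrb4a and 1.67 for Fgl2, against 1.79 and 1.32 without them. Cd47, the signal that restrains phagocytosis, rose by 1.10 in macrophages, 1.07 in gamma-delta T cells and 1.05 in neutrophils, of which the macrophage call was lost with baseline array 3 alone (0.89, adjusted p = 0.276). Its receptor Sirpa fell by 1.62 in dendritic cells and by 1.37 in neutrophils, and Cd200r1 fell by 1.04 and 1.30 in the same types. The other 3 lowered pairs were Cd244a in dendritic cells, which fell by 1.19, Cd160 in gamma-delta T cells, which fell by 1.34 (8.75 after interferon, against 10.09 at baseline), and Btla in neutrophils, which fell by 1.41 (5.95 after interferon, against 7.36 at baseline). Beside the lower B cell markers of the same neutrophil arrays, the Btla change was -0.52 with marker covariates and not called (adjusted p = 0.572).

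The list of genes tied to PD-L1 induction and stability held 12 measured genes, of which 3 to 5 were raised in each cell type. In limma 0 were lowered, and 4 pairs of gene and type were lower at an unadjusted p below 0.05. Stat2, part of the interferon-activated complex, and Socs1, a feedback inhibitor of the pathway, were raised in all 9 types. Stat2 rose by between 2.04 in NK cells and 3.31 in neutrophils, and its change was not shown to differ among the cell types (F = 2.73, adjusted p = 0.217). Irf1, a transcription factor of the Cd274 promoter, rose by 2.38 in macrophages, 1.41 in neutrophils, 1.30 in dendritic cells and 1.12 in CD8+ T cells. Irf2 of the same list rose by 1.25 in neutrophils and by 1.07 in NKT cells. Of the 3 genes raised in each of CD4+ T, regulatory T and NK cells, only Stat2 and Socs1 are named here. The cell types given for Irf1 and Irf2 therefore need not be complete. With baseline array 3 alone the Irf1 rise was 2.03 in macrophages and was not called in CD8+ T cells (0.93, adjusted p = 0.142). Cmtm6 and Cmtm4, which keep the PD-L1 protein at the cell surface, were called in 0 of 18 pairs of gene and type by limma, of which 3 had an unadjusted p below 0.05.

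The median change of this list lay between 0.18 and 0.72 over the 9 types. On the mean over types the list medians were 0.56 for PD-L1 induction and stability, 0.06 for the neighbours, 0.04 for the receptors and for dendritic cell maturation, -0.02 for the other inhibitory molecules, -0.03 for CD40 signalling and the other B7 family, and -0.05 for the TNF family, beside -0.01 over all genes. Of 10 measured genes neighbouring Cd274 and Pdcd1lg2, 6 pairs of gene and type were raised and 0 lowered by limma, also at an unadjusted p below 0.05. Plgrkt, a plasminogen receptor, rose by 1.58 in neutrophils, and Insl6, an insulin-like gene, by 1.63 in CD4+ T cells and 1.25 in CD8+ T cells, the last being 1.47 with baseline array 3 alone. Jak2, a kinase of cytokine receptors, rose in NKT cells, neutrophils and gamma-delta T cells by between 1.14 and 1.20, and the neutrophil call was lost with marker covariates (1.05, adjusted p = 0.153).

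Of 12 measured genes of CD40 signalling, 0 were raised in any cell type by limma, dendritic cells included, and 1 was lowered. In dendritic cells 0 of 12 lies near the share of all genes raised there, 2.34%. Of 108 pairs of gene and type, 25 had an unadjusted p below 0.05 in limma, of which 11 were higher and the rest lower. The lowered gene was Map3k14, the NF-kB inducing kinase, which fell by 1.17 in neutrophils (adjusted p = 2.24e-06), where 2.85% of all genes were lowered. Of 15 genes of dendritic cell maturation, 2 were raised in dendritic cells. They were Il15, a cytokine for NK and memory T cells, by 2.84 (SE 0.303) and its presenting receptor Il15ra by 1.33 (SE 0.164). In macrophages the same pair rose by 2.65 and 2.39, beside Socs2 by 2.77, and with baseline array 3 alone Il15, Il15ra and Socs2 rose by 2.48, 2.33 and 2.78. In neutrophils Il15ra rose by 3.11 and Il15 by 1.69. Ccr7 of this list was lowered in gamma-delta T cells, at -1.07, and was not called with marker covariates (-0.98).

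**Figure D4:**
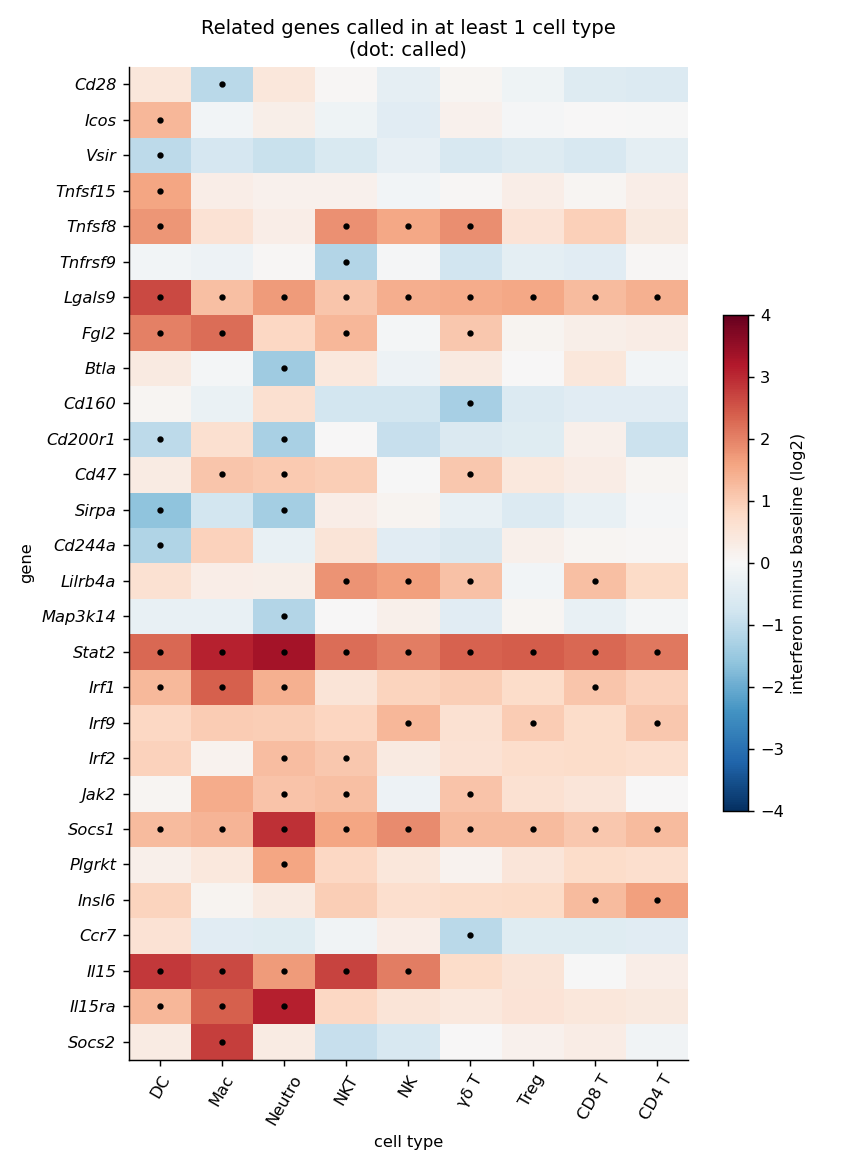
Interferon minus baseline change (colour, log2) of the 28 of 92 related genes called in at least 1 of 9 cell types (columns), with a dot where called. The Lgals9, Stat2 and Socs1 rows carry a dot in every column, and values run from -1.62 for Sirpa in dendritic cells to 3.31 for Stat2 in neutrophils.

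Genes with the profile most like each of the 6 were sought by Pearson correlation of mean levels over the 18 groups of cell type and treatment, among 11497 genes. Each cell type gives 2 of the 18 groups, so the points are not independent and the coefficients are descriptions. Cd274 was most like Stat2 (r = 0.953), Usp18 (r = 0.932) and Herc6 (r = 0.930). Cd86 was most like Tlr7 (r = 0.894), a sensor of single-stranded RNA, then Phf11d (r = 0.845) and Ctss (r = 0.839), a protease of antigen processing. Cd40 was most like Rab7b (r = 0.958), Nlrc4 (r = 0.958) and Ccnd1 (r = 0.956). Cd80 was most like Phactr2 (r = 0.962), Mctp1 (r = 0.942) and Myo5a (r = 0.933).

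Icosl was most like Rubcnl (r = 0.957), Tns3 (r = 0.953) and Fgd2 (r = 0.936). Pdcd1lg2 was most like Nfkb2 (r = 0.884), Vcam1 (r = 0.875) and Spic (r = 0.873). Among the 6 genes themselves the closest pair was Cd86 and Cd40 (r = 0.706), and Cd274 and its neighbour Pdcd1lg2 had r = 0.127.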

How the data were processed

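RNA of 43 arrays was analysed as deposited, as 1 linear intensity for each of 24922 probe sets and array. Per the submitters' processing notes, Affymetrix Power Tools was used and RMA, which normalises across arrays; no version and no build is given there. Intensities were log2-transformed without further scaling, and no detection calls were used. Of the probe sets, 21425 carried 1 gene symbol, 1399 several and 2098 none, which gave 19752 genes, with the brightest probe set of 921 genes that had more than 1. The 18 groups of cell type and treatment entered 1 limma model (version 3.58.1, R 4.3.3; lmFit, eBayes) with 25 residual degrees of freedom, which lends the single macrophage interferon array the spread of the rest. P-values were adjusted over all genes within a comparison, and the fit was tested on simulated data. The number of arrays limits the precision. The genes named are the 6 members, the genes of the related lists that were called or whose lack of a call is stated, B cell markers that moved with a result, and the 3 genes most like each member (highest group mean of at least 7, names of unnamed transcripts left out). Not every called pair of a related gene and cell type is named. The members and lists were chosen with earlier results of these data known. The design text speaks of more cell populations than the 9 analysed here. Alternatives covered preparation, baseline arrays, blocks, normalisation, dim genes, array weights, probe sets and each array left out. Baseline contrasts compared dendritic cells and macrophages, or neutrophils, with the 6 lymphocyte types.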

Additional observations from a re-analysis of the deposited data

Results flagged for a closer look

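The interferon changes below differed between cell types by the limma test of the difference itself. The Cd274 change in dendritic cells differed by -1.51 from the mean of the other 8 types (adjusted p = 0.00315), with both interferon arrays above all 3 baseline arrays within dendritic cells, and the difference missed the test at -1.33 without dendritic cell interferon array 1 (adjusted p = 0.0981) and at -1.15 with baseline array 3 alone (adjusted p = 0.151). The Cd40 change in dendritic cells differed by 1.97 (adjusted p = 3.32e-05).

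In neutrophils the changes of Icosl, Cd86 and Cd80 differed from the other 8 types by -1.71, -1.67 and -1.46 (adjusted p = 0.000584, 0.000758 and 0.0418). For Cd80 the F test among all cell types did not pass (F = 1.79, adjusted p = 0.531), and the neutrophil call held in 38 of 50 alternative fits. The Cd80 difference missed the test without any 1 of the 4 neutrophil arrays, at between -1.58 and -1.34, and without dendritic cell baseline array 2, dendritic cell interferon array 2, NK interferon array 2, regulatory T cell interferon array 2 or gamma-delta T cell interferon array 1 (adjusted p = 0.0511 to 0.0546). The B cell marker median in these arrays was 6.02 and 6.22 after interferon, against 9.02 and 8.03 at baseline, and its part in the differences was not tested.

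Between dendritic cells with macrophages and the 6 lymphocyte types, the Cd40 change differed by 1.09 (adjusted p = 0.00978) and the Cd86 change by -1.00 (adjusted p = 0.0199). Of 51 alternative fits, the Cd40 call held in 48 and the Cd86 call in 32. Both class means join unlike changes. In dendritic cells and macrophages these were 2.16 and 0.45 for Cd40, and 1.35 and 0.59 for Cd86.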

How the results depend on the processing

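Of 2904 values of single genes in single cell types under alternative settings, 2891 kept their side of the threshold, 9 gained a call, 4 lost one and 0 reversed. Most of these settings left out 1 array of another cell type. That leaves the change itself as it was and alters only its SE and p-value, so the count says little about robustness. The 16 raised pairs numbered 15 to 17 with 1 array left out and 13 with baseline array 3 alone, 1 of the 3 lost there being in neutrophils, which have no such array. The count of lowered pairs, 1 in the fit reported, was 2 with the preparation term, with each cell type fitted alone, with the mean of probe sets and with no fold minimum. It was 0 with baseline array 3 alone, with marker covariates and with gamma-delta T cells, NKT cells and neutrophils left out. The first and the last of these leave out neutrophils, the cell type concerned. In neutrophils the preparation term was estimated from other cell types. Of the related genes called, 3 of 10 in macrophages and 2 of 6 in CD8+ T cells lost the call with baseline array 3 alone, and with marker covariates 2 of 14 in neutrophils, 1 of 10 in gamma-delta T cells and 0 of 10 in NKT cells. These checks of related genes, the marker covariates, the left-out types and the dropped fold minimum were chosen after seeing the data. Pairs whose change differed from the other 8 types numbered 9 with array weights and 4 to 7 with 1 array left out. Genes whose change differed among cell types numbered 0 with baseline array 3 alone, and 3 to 4 with 1 array left out. For Icosl this call was lost without 3 of the 4 neutrophil arrays (adjusted p = 0.162 to 0.349), without NK interferon array 1 (adjusted p = 0.0514) and without CD4+ interferon array 2 (F = 4.07). For dendritic cells and macrophages against lymphocytes, the 2 genes called became 0 with baseline array 3 alone, 1 with quantile normalisation, 1 with the replicate block, and 1 to 2 with 1 array left out; the cause was not tested. The mean change over cell types ranged from 2.28 to 2.40 for Cd274 and from 1.49 to 1.57 for Cd86 with 1 array left out. Replicate numbers were not treated as pairs: the deviations of same-numbered arrays correlated between -0.301 and 0.347 over 16 pairs, 7 of them above 0.1. In a group of 2 arrays the deviations mirror each other, so the values of a type are tied, and both neutrophil values are 0.347. NK and NKT cells were positive in each pair, at 0.128 to 0.336, so this check cannot settle pairing within a type. With the replicate number as a block the mean changes were 2.48 for Cd274 and 1.61 for Cd86, and 17 pairs were raised. A mean over types fitted alone was not run, since that setting gives no joint test.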
